A study of Rattus norvegicus with 6 samples.

Results

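lncRNA2977, lncRNA5364, lncRNA3554, lncRNA3135 and lncRNA5998 are 5 long noncoding RNAs (lncRNAs) of the rat hippocampus, measured by 5 of the 6716 probes of the array, each for an Ensembl rat transcript. They belong to the 17 lncRNAs that the study listed as increased after fimbria-fornix (FF) transection for its PCR assays, of which 11 are Ensembl rat transcripts. By the study's account these 17 were picked at random, and it reported more lncRNAs than these as increased. The 17 are called the increased list below. The 5 were chosen by their bright signal and by the order of the 3 normal samples. This order was the same in each, with normal 2 highest, normal 1 next and normal 3 lowest. The difference between the groups and the order of the normal samples had therefore been used to choose them and are given below as descriptions, without a test.

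The series holds denervated hippocampi of Sprague–Dawley rats, taken on day 7 after FF transection with a wire knife, and untreated normal hippocampi of Sprague–Dawley rats, with 3 samples in each group. The study describes the hippocampi as coming from 3 paired adult rats, more of them male than female. Which samples form a pair and the sex behind each sample are not given in the sources used here. No sham operation is described for the normal group. Each RNA sample was labelled with Cy5 and hybridized in 1 colour to the lncDETECT rat array, and the authors deposited log2 normalized intensity. The array medians were alike, at 10.17 to 10.19, and Bc1, among the brightest probes, reached 15.99, so that the signals of the 5 lncRNAs, none above 12.76, lay well below the upper end of the scale. The number of arrays limits the precision. The RNA integrity listed by the study was higher in every denervated than in any normal extract, so that it cannot be told apart from the group.

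lncRNAs are transcripts without a long open reading frame, and some act in the nucleus on transcription or splicing while others act in the cytoplasm on messenger RNAs or microRNAs. Many are present in 1 tissue or cell type only, and the brain expresses many of them. The fimbria-fornix carries the septal input, much of it cholinergic, to the hippocampus. After its transection these axons degenerate, glial cells react and the denervated tissue becomes a site of sprouting. The study describes the hippocampus as a site of adult neurogenesis in which transection increases the production of neurons. No function is known here for any of the 5 lncRNAs. By PCR the study reported lncRNA5364 as continuously raised after transection and as present in all the tissues it listed, neural or not. Its text names no such result for the others. The array annotation gives only a transcript, a gene identifier and a place in the genome for each, and the RefSeq tables used here hold no Ensembl identifiers, so that no gene symbol and no sequence could be given.

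As a check of the tissue, Bc1, a small cytoplasmic noncoding RNA of neurons, lay between 15.97 and 15.99 in all 6 samples, at the upper end of the scale. It was the only one of the 11 neural noncoding RNAs looked for that could be matched to a probe by its RefSeq accession. Of 6 noncoding RNAs better known from other tissues, 4 were matched, and H19, an imprinted growth-related transcript, lay between 13.29 and 14.36, Mir122, the liver microRNA, between 12.15 and 12.86, and the muscle microRNA genes Mir133a1 and Mir206 between 7.97 and 9.89 and between 4.86 and 8.53. A bright probe on this array is therefore not by itself a sign of a transcript of neural cells. None of these 5 transcripts passed the Benjamini-Hochberg adjustment in limma (adjusted p = 1.0 for each). The samples were pieces of whole tissue, so more cells of a type and more RNA per cell cannot be told apart.

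The annotation assigned each of the 5 probes to a single transcript of a single gene and gives its position; the genome build of these positions is not given in the sources used here. lncRNA2977 (probe RB_p_rnol002977, transcript ENSRNOT00000035283, gene ENSRNOG00000028488) was placed at chr6:131867828-131868353 on the forward strand, a span of 526 bases. lncRNA5364 (probe RB_p_rnol005364, transcript ENSRNOT00000052065, gene ENSRNOG00000030011) was placed at chr10:94411635-94412209 on the forward strand, a span of 575 bases. lncRNA3554 (probe RB_p_rnol003554, transcript ENSRNOT00000027501, gene ENSRNOG00000047262) was placed at chr10:15262090-15263558 and was the only one of the 5 on the reverse strand, with a span of 1469 bases. lncRNA3135 (probe RB_p_rnol003135, transcript ENSRNOT00000073813, gene ENSRNOG00000046026) was placed at chr1:16788333-16788789 on the forward strand, a span of 457 bases. lncRNA5998 (probe RB_p_rnol005998, transcript ENSRNOT00000075272, gene ENSRNOG00000045522) was placed at chr2:210798005-210799135 on the forward strand, a span of 1131 bases. The pair on chromosome 10 was 79.1 Mb apart, so that no 2 of the 5 shared a locus. The 1620 Ensembl probes with 1 placement on a numbered chromosome or X had a median span of 680 bases, with quartiles of 459.75 and 1001 bases, so that 3 of the 5 lay under the median and 2 above the upper quartile. Chromosome 10 held 5.25% of these probes, chromosome 1 held 12.3%, chromosome 2 held 8.77% and chromosome 6 held 5.43%.

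lncRNA2977 had log2 intensities of 12.66, 12.15 and 11.82 in denervated 1, 2 and 3, against 10.68, 11.43 and 10.40 in normal 1, 2 and 3. Denervated 3 was the lowest denervated sample and normal 2 the highest normal sample, and across the groups these 2 samples lay closest. The denervated hippocampus averaged 12.21 ± 0.42 and the normal hippocampus 10.84 ± 0.53 (SD, n = 3 each), a log2 difference of 1.37 or 2.59-fold.

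lncRNA5364 had log2 intensities of 12.24, 12.06 and 11.98 in denervated 1, 2 and 3, against 10.71, 11.60 and 10.40 in normal 1, 2 and 3. Its denervated samples lay within 0.26 of each other, while its normal samples spread over 1.21, with normal 2 far above the other normal samples. The denervated hippocampus averaged 12.09 ± 0.13 and the normal hippocampus 10.91 ± 0.63 (SD, n = 3 each), a log2 difference of 1.19 or 2.28-fold. In normal 3 it had exactly the same value as lncRNA2977, 10.40. Such ties were common on these arrays: 69.5% of the probes of normal 3 shared their value with at least 1 other probe, and 7 probes held this one.

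lncRNA3554 had log2 intensities of 12.30, 12.16 and 12.27 in denervated 1, 2 and 3, against 11.13, 11.73 and 10.70 in normal 1, 2 and 3. Its denervated samples were the closest to each other among the 5 lncRNAs, with a range of 0.14 against 1.03 in the normal samples. The denervated hippocampus averaged 12.25 ± 0.07 and the normal hippocampus 11.18 ± 0.52 (SD, n = 3 each), a log2 difference of 1.06 or 2.09-fold.

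lncRNA3135 had log2 intensities of 11.07, 10.97 and 11.26 in denervated 1, 2 and 3, against 9.99, 10.67 and 9.53 in normal 1, 2 and 3. It gave the lowest signal of the 5 probes, and its normal 1 and normal 3 values lay below the median of their arrays. The denervated hippocampus averaged 11.10 ± 0.15 and the normal hippocampus 10.06 ± 0.57 (SD, n = 3 each), a log2 difference of 1.04 or 2.06-fold, the smallest of the 5.

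lncRNA5998 had log2 intensities of 11.84, 12.25 and 12.76 in denervated 1, 2 and 3, against 10.54, 11.73 and 10.39 in normal 1, 2 and 3. Denervated 1, its lowest denervated sample, lay only 0.11 above normal 2, which was the narrowest separation of the groups among the 5. The denervated hippocampus averaged 12.28 ± 0.46 and the normal hippocampus 10.89 ± 0.73 (SD, n = 3 each), a log2 difference of 1.39 or 2.63-fold, the largest of the 5.

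**Figure D1:**
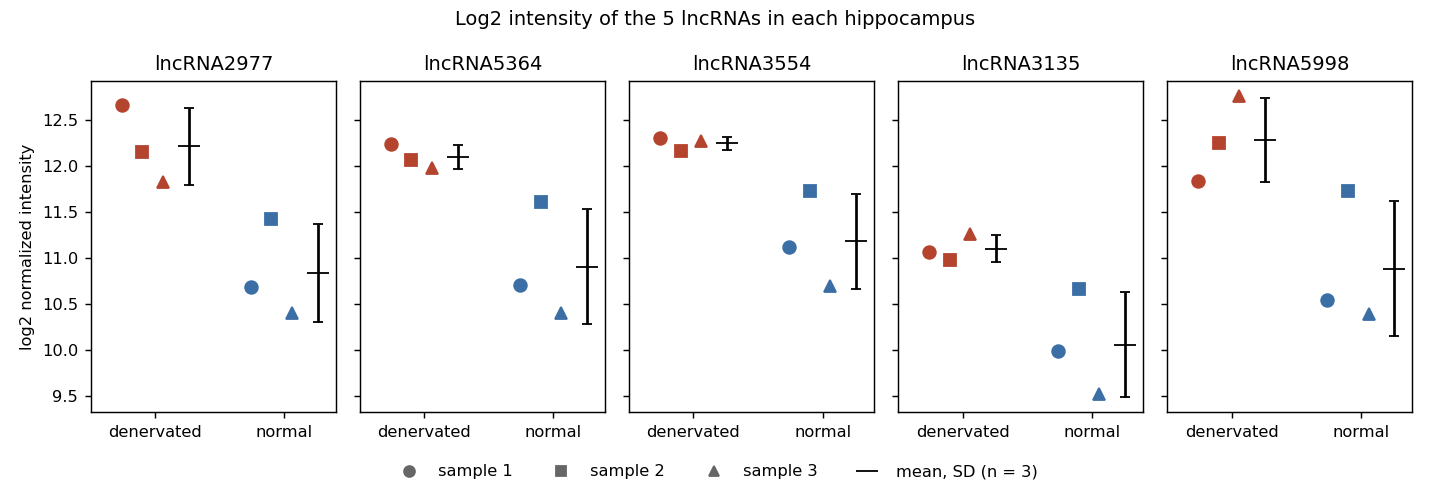
Log2 normalized intensity (vertical axis) of each of the 5 lncRNAs in the 3 denervated (red, left) and 3 normal (blue, right) hippocampi, where the marker shape gives the sample number and the black bars give the mean and SD of 3 samples. In each panel the red points lie above the blue ones, and normal 2 (blue square) is the blue point nearest to the red ones.

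In 5 of 5 lncRNAs the groups did not overlap: the lowest denervated value exceeded the highest normal value by 0.11 to 0.44. Over all probes of the array this held for 3.37%, and the study had listed these lncRNAs for their increase, so nothing is read from the count. Their log2 differences ranged between 1.04 and 1.39 with a median of 1.19, where the median over all 6716 probes was 0.02. The other 12 lncRNAs of the study's increased list had differences between 0.79 and 2.88 with a median of 1.06.

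The rule used the order of the normal samples but not the size of the steps between them. Normal 2 exceeded normal 1 by 0.60 to 1.19, and normal 1 exceeded normal 3 by 0.15 to 0.46, the smallest step being that of lncRNA5998. The order normal 2, normal 1, normal 3 was not rare. Of all 6716 probes, 22.8% showed it, more than 4 of the other 5 possible orders, which were shown by 5.76% to 28.3% of the probes. The most frequent order also had normal 2 on top, followed by normal 3. Among the other 12 lncRNAs of the increased list the order occurred in 4. One of these was an Ensembl transcript, lncRNA3019, which met the order with log2 intensities of 6.58, 6.64 and 4.74 in normal 1, 2 and 3 but was dim, with a mean over the 6 samples of 7.43. The lowest such mean among the 5 chosen lncRNAs was 10.58, that of lncRNA3135. The remaining 3 with this order were lncRNA5922 and lncRNA462, rat matches of mouse transcripts, and lncRNA6039, a RefSeq transcript.

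The order of the denervated samples had not been used to choose the lncRNAs, and it was not shared. lncRNA2977 and lncRNA5364 ranked denervated 1, then 2, then 3. lncRNA3554 ranked denervated 1, then 3, then 2. lncRNA3135 ranked denervated 3, then 1, then 2, and lncRNA5998 ranked denervated 3, then 2, then 1, the reverse of lncRNA2977. For lncRNA5364, lncRNA3554 and lncRNA3135 the 3 denervated values spanned only 0.14 to 0.29, so that their order rests on small differences, whereas lncRNA2977 and lncRNA5998 spanned 0.84 and 0.92. The pattern common to the 5 thus lay in the step between the groups and in the normal samples.

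The SD was larger among the normal than among the denervated samples for 5 of 5 lncRNAs. It lay between 0.07 and 0.46 in the denervated and between 0.52 and 0.73 in the normal samples. Over all probes the normal SD was the larger for 53.9%. The increase and the normal order had been used to choose the 5, so their SDs are not independent of the choice and are given as a description. Other Ensembl probes of similar brightness, described next, had a median SD of 0.47 among denervated and 0.52 among normal samples, and each of the 5 lay below this median in the denervated and above it in the normal samples, some of them only slightly.

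To set the 5 against probes of the same kind and signal, the 462 other Ensembl probes whose mean over the 6 samples lay between 10.58 and 11.71, the range of the 5, were taken. Their median log2 difference was 0.04, and the middle 90% lay between -0.73 and 0.93, so that each of the 5 had a larger difference than most probes of similar brightness, as their choice required. In this set the normal order occurred in 132 probes (28.6%), the groups did not overlap with the denervated samples above in 25 (5.41%), and both held in 6. Of these 6, a log2 difference above 1 was found in 2. On their arrays the 5 lncRNAs ranked between percentile 65.3 and percentile 90.4 of all probes in the denervated samples and between percentile 36.8 and percentile 78.2 in the normal samples, so that bright here means the upper part of the array in most samples but not near its limit. The median of the means over all Ensembl probes was 10.73, above the 10.58 of lncRNA3135. Of the 6 other Ensembl lncRNAs of the increased list, lncRNA6030, lncRNA4890 and lncRNA4792 had means of 12.16, 11.68 and 11.55. The rest were dimmer than the 5, so brightness alone did not set the 5 apart.

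**Figure D2:**
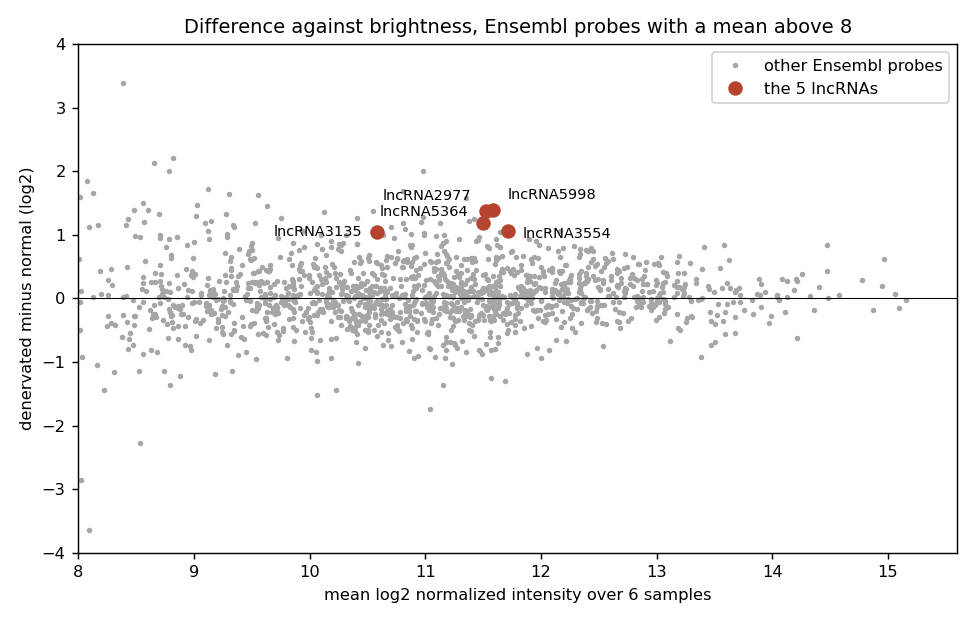
Denervated minus normal mean (vertical axis, log2) against the mean log2 normalized intensity over the 6 samples (horizontal axis) for the 1492 Ensembl probes with a mean above 8, with the 5 lncRNAs in red and the others in grey. The 5 lie between 1.04 and 1.39 on the vertical axis, on the upper edge of the cloud of probes of their brightness, and 55 other probes shown also exceed 1.

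Over the log2 intensities of all 6716 probes, which are not independent replicates, denervated 3 and normal 2 had a Pearson correlation of 0.87 with each other and of 0.69 to 0.84 with the other 4 samples, which had correlations of 0.82 to 0.93 among themselves. The ranges overlapped, and denervated 1 had its highest correlation with denervated 3 (0.842), slightly above that with denervated 2 (0.840). In lncRNA2977 and lncRNA5364 denervated 3 and normal 2 were the samples that came closest across the groups. Denervated 3 exceeded normal 2 by 0.40 for lncRNA2977, 0.37 for lncRNA5364, 0.54 for lncRNA3554, 0.59 for lncRNA3135 and 1.03 for lncRNA5998. The mean of denervated 1 and 2 exceeded the mean of normal 1 and 3 by 1.86 for lncRNA2977, 1.60 for lncRNA5364, 1.32 for lncRNA3554, 1.26 for lncRNA3135 and 1.58 for lncRNA5998. For 5 of 5 lncRNAs the first of these differences was the smaller, and for 50.4% of the 462 Ensembl probes of similar brightness. The choice of lncRNAs with normal 2 on top of the normal samples favours this, so it is given as a description. The part of these 2 samples in the differences was not tested further. Since the groups did not overlap in any of the 5, the direction could not differ with or without these 2 samples.

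**Figure D3:**
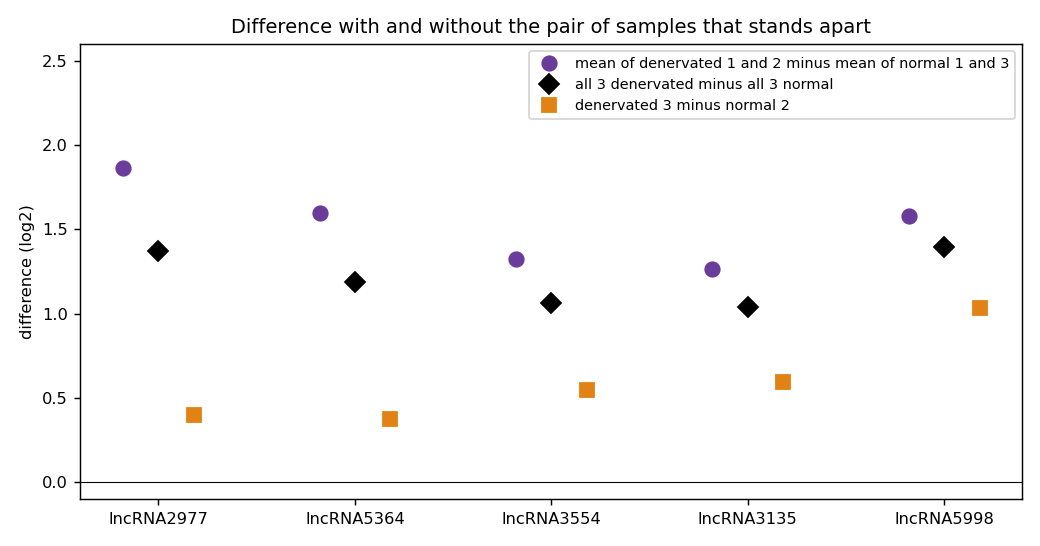
Log2 difference (vertical axis) for each of the 5 lncRNAs, as the mean of denervated 1 and 2 minus the mean of normal 1 and 3 (purple circles), the mean of all 3 denervated minus that of all 3 normal samples (black diamonds) and denervated 3 minus normal 2 (orange squares). For each lncRNA the orange square, between 0.37 and 1.03, lies lowest and the purple circle, between 1.26 and 1.86, lies highest.

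The likeness of the 5 lncRNAs to each other was measured by Pearson's r over the 6 samples, for all 10 pairs. The points are samples that share arrays, scaling and the step between the groups for which the lncRNAs were chosen, so the values are descriptions without a p. The mean r was 0.94, and 9 of the 10 pairs were above 0.9. lncRNA3554 and lncRNA3135 were most alike (r = 0.99), and lncRNA2977 and lncRNA5998 least (r = 0.80), the pair with opposite orders in the denervated samples. lncRNA3554 and lncRNA5364, the pair on chromosome 10, had an r of 0.99. Spearman's rho averaged 0.88 and was 1.0 for lncRNA2977 and lncRNA5364, which had the same order in all 6 samples. With the mean of each group subtracted, so that the step between the groups no longer counts, the mean r was 0.79 and ranged between 0.33 (lncRNA2977 and lncRNA5998) and 0.98 (lncRNA3554 and lncRNA3135). This remaining likeness still contains the normal order that the rule fixed. Among the denervated samples alone, whose order the rule did not use, no common pattern was seen: 5 of the 10 pairs were related inversely and 5 directly, over 3 samples, too few to give a correlation.

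High correlations follow in part from the choice itself. Among the 5963 other probes with no value under 5 the median r of a pair was 0.03, and the middle 90% of pairs lay between -0.84 and 0.86, a wide range because only 6 samples enter. Among the 44 of these probes that were higher without overlap by more than 1, the mean r of a pair was 0.65, and among the 14 of those that also showed the normal order it was 0.82. The last set shared the step between the groups and the normal order with the 5 lncRNAs but was not limited to bright probes, Ensembl transcripts or the study's list, and its mean r with group means subtracted was 0.51, where the 5 had 0.79. Whether the 5 differ from such probes was not tested.

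**Figure D4:**
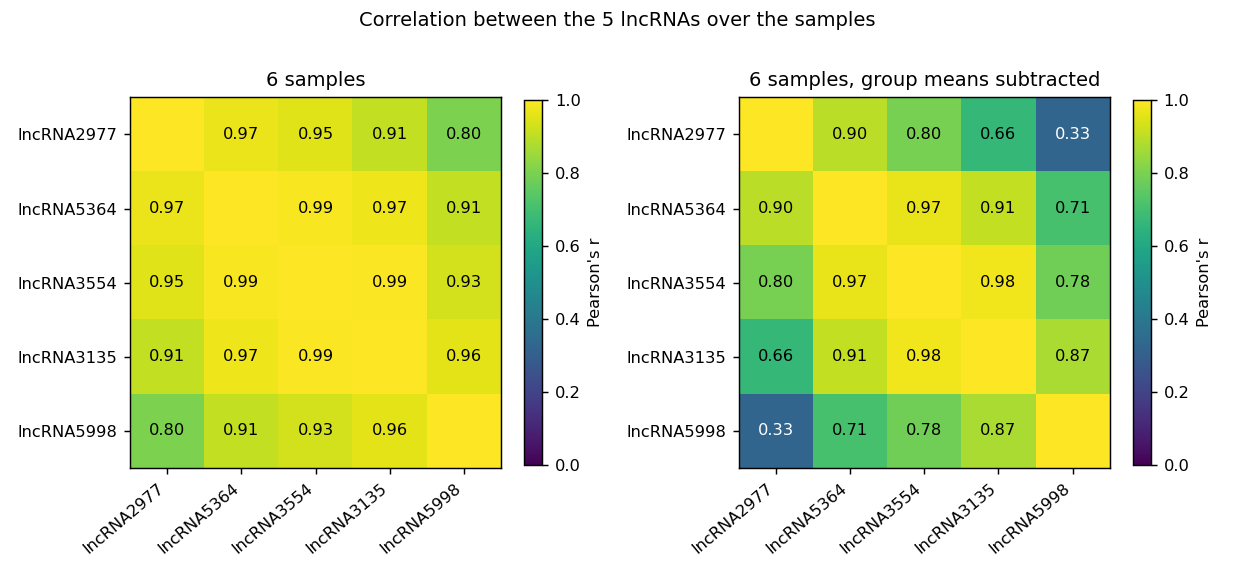
Pearson's r (colour and number) between each pair of the 5 lncRNAs over the 6 samples, as measured (left) and with the mean of each group subtracted (right). Most squares on the left are above 0.9, and the pair of lncRNA2977 and lncRNA5998 has the lowest value on both sides, 0.80 and 0.33.

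The probes most like the 5 were sought among the 5963 others with no value under 5, by r with the mean profile of the 5 over the 6 samples. The highest was lncRNA3567 (r = 0.99), a rat match of the mouse transcript NR_033602 on chromosome 12. It had log2 intensities of 13.39, 13.45 and 13.66 in denervated 1, 2 and 3, against 12.28, 12.97 and 11.91 in normal 1, 2 and 3. It thus showed the same normal order at a higher signal, and its log2 difference of 1.11 was within the range of the 5. Next came lncRNA6701 (XR_146181, r = 0.98), lncRNA2987 (ENSRNOT00000035789 on chromosome 2, r = 0.98), lncRNA1800 (ENSRNOT00000059199 on the X chromosome, r = 0.97) and lncRNA474 (XR_146223, r = 0.97). lncRNA6701 was dimmer than the 5, at 8.42, 8.50 and 8.24 in denervated 1, 2 and 3, against 6.74, 7.98 and 5.97 in normal 1, 2 and 3. lncRNA2987, lncRNA1800 and lncRNA474 had smaller log2 differences of 0.73, 0.62 and 0.64, and normal 3 of lncRNA2987 lay slightly above its normal 1.

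Among the 5963 probes, 23 had an r above 0.95 with the mean profile, and they were spread over the probe sources: 6 of 1531 Ensembl probes (0.392%), 11 of 2963 mouse-matched probes (0.371%) and 6 of 1464 RefSeq probes (0.41%). The likeness was thus found at similar shares in all 3 sources. The 5 nearest probes of each single lncRNA comprised 18 probes, of which 3 were near to 3 of the lncRNAs: lncRNA3567, lncRNA6701 and lncRNA2194, a rat match of NR_046060 on chromosome 14. lncRNA3567 led the list of lncRNA3554 (r = 0.99) and that of lncRNA3135 (r = 0.995). The list of lncRNA2977 was led by lncRNA3133 (r = 0.99), a rat match of NR_002687 on chromosome 3, and also held lncRNA6039 (r = 0.99), which the study had listed as increased too. The list of lncRNA5998 was led by lncRNA149 (XR_146405, r = 0.98) and, apart from lncRNA3567, shared no probe with those of the other 4.

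The genomic surroundings of the 5 lncRNAs had not been used to choose them, so the probes annotated within 1 Mb on the same chromosome could be tested. There were 31 such probes, 11 Ensembl and 20 mouse-matched, of which 14 lay near lncRNA3554, 6 near lncRNA3135, 5 near lncRNA5998, 4 near lncRNA5364 and 2 near lncRNA2977. None overlapped one of the 5. In the limma comparison of the groups over all probes 0 of the 31 had an adjusted p under 0.05 and 0 passed 0.05 without adjustment, whereas over all probes these shares were 0.0149% and 1.97%. None of the 31 therefore passed the double threshold that the study set, more than 1 in log2 difference and less than 0.05 in p without adjustment, which 1.04% of all probes passed on the higher and 0.298% on the lower side. The lowest unadjusted p was 0.068 (limma, adjusted p = 1.0 by Benjamini-Hochberg), that of lncRNA3200. The mean was higher in the denervated samples for 17 and lower for 14, and in none of the 31 were the denervated samples higher without overlap. They were lower without overlap in 3 of the 31, lncRNA3200, lncRNA335 and lncRNA699, a larger share than the 2.53% of all probes. These are few probes, 1 of them (lncRNA335) with a denervated 3 value of -0.41, and the share was not tested. lncRNA335 and lncRNA699 also lay close together, on the same strand and side, at 302.7 and 315.5 kb from lncRNA5364. Some of the 31 shared a placement in whole or in part, such as lncRNA2289 and lncRNA4794, so the 31 are not all separate loci. Among the 28 with no value under 5 the log2 differences ranged between -0.76 and 0.80, all smaller than those of the 5. The normal order occurred in 5 of the 31. With 3 samples a group, differences of this size could not be told from 0.

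lncRNA3200, a rat match of a mouse transcript 5.72 kb from lncRNA5998, was the closest neighbour of any of the 5. Its log2 intensities were 8.46, 7.77 and 8.78 in denervated 1, 2 and 3, against 9.05, 9.10 and 9.15 in normal 1, 2 and 3. The denervated samples lay below the normal samples without overlap, the opposite of lncRNA5998, with a log2 difference of -0.76 and a standard error of 0.34 in limma. The nearest neighbour of lncRNA5364 was lncRNA2656, at a distance of 32.4 kb, which hardly varied, with means of 7.92 ± 0.07 for denervated and 7.91 ± 0.21 for normal hippocampus (SD, n = 3 each). The nearest of lncRNA3554 was the Ensembl transcript lncRNA2138, at 60.45 kb, with means of 11.57 ± 0.09 for denervated and 11.27 ± 0.42 for normal hippocampus (SD, n = 3 each). Its normal 2 value was the highest of its 6. The nearest of lncRNA3135 was the Ensembl transcript lncRNA277, at 149.2 kb, with means of 10.06 ± 0.60 for denervated and 9.75 ± 0.27 for normal hippocampus (SD, n = 3 each). The nearest of lncRNA2977 was lncRNA950, at 83.0 kb, with all 6 samples under 5.

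lncRNA5998 also had lncRNA6088 within 1 Mb, an Ensembl transcript on the same strand of chromosome 2 at a distance of 851.8 kb, noticed after the values had been seen. Its annotated span, 1131 bases, was exactly that of lncRNA5998, and it was the only other Ensembl probe with this span. No sequence was used here to tell whether the pair are copies whose RNA could reach both probes. lncRNA6088 had log2 intensities of 12.64, 12.06 and 12.20 in denervated 1, 2 and 3, against 11.69, 12.26 and 11.72 in normal 1, 2 and 3. Normal 2 was again its highest normal sample, but the groups overlapped, and the log2 difference of 0.41 (standard error 0.32 in limma) was well under that of lncRNA5998. An equal span was also found for 1 other Ensembl probe each of lncRNA2977, lncRNA5364 and lncRNA3554 and for 4 of lncRNA3135, in each case on another chromosome.

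**Figure D5:**
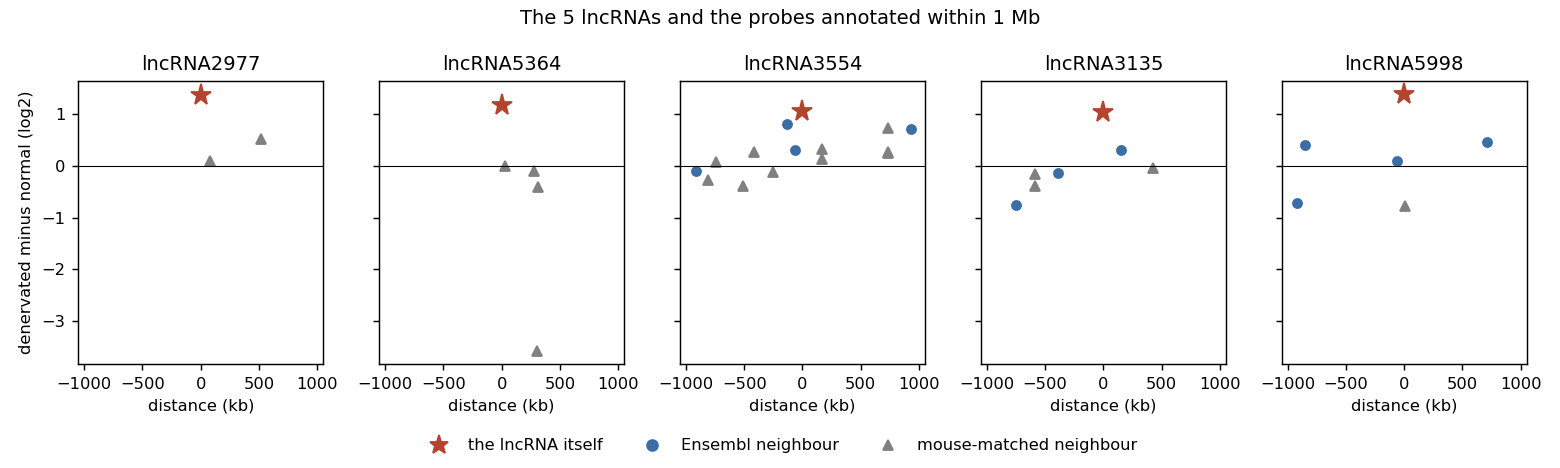
Denervated minus normal mean (vertical axis, log2) of each of the 5 lncRNAs (star) and of the 31 probes annotated within 1 Mb of one of them, against the distance in kb (negative towards lower coordinates), with Ensembl neighbours as circles and mouse-matched neighbours as triangles. Each star lies above all neighbours in its panel. The single low triangle near lncRNA5364 is lncRNA335, whose denervated 3 value was -0.41.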

How the data were processed

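Per the study's methods, 1-colour Cy5 arrays were read on a GenePix scanner, each array was adjusted by 50% scaling, and repeated spots and repeated arrays were combined to 1 value per probe and sample. The authors deposited these values as log2 normalized intensity, and they entered here unaltered. A background correction or a filter on dim probes is not given in the sources used here. The deposited lists of the authors' own comparison hold their log2 ratios, ratios and p-values and were not used. One probe is not reported here.

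The 5 lncRNAs, the lists and the comparisons were chosen with earlier results of these data known. Groups were taken from the sample titles. The groups were compared over all 6716 probes in R 4.3.3, by the lmFit and eBayes functions of limma 3.58.1 with group as the only term, with Benjamini-Hochberg adjustment over all probes. The code of the fit was tried on simulated data with independent noise. Those data lack the likeness between samples seen here, so the trial does not show how the fit behaves under it. The 5 lncRNAs themselves were described without a test. The text names the 5, the study's other increased Ensembl lncRNAs where a result turns on them, the 5 probes most like the mean profile and each lncRNA by Pearson's r, and the nearest annotated probe of each. Placements are those of the array annotation. That the annotated placements of Ensembl and mouse-matched probes share a build is not stated, and distances between them rest on that assumption. The study describes the denervated and normal hippocampi as paired, but which samples form a pair is not stated, so no pairing entered the comparison. Each p measures only the spread among these 6 samples. The study describes independent biological replicates from 3 paired rats. The spread among the samples therefore holds differences between rats as well as technical ones, which cannot be separated here. The study lists a higher RNA integrity for every denervated than for any normal RNA extract, with the lowest value in the extract it names Normal 3. RNA integrity and group can therefore not be told apart here, and its part in the differences was not tested. The alternatives were quantile normalization, array medians, values under 5 set to 5, the second deposited value table, group medians, linear means, Spearman's rho, the upper 50% of probes, an intensity trend, the sample number as a block, 100 kb in place of 1 Mb and leaving out each sample. Leaving out denervated 3 and normal 2 together and subtracting group means were added after the data were seen. Python 3.11.15 and matplotlib 3.10.9 were used for summaries and figures.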

Additional observations from a re-analysis of the deposited data

How the results depend on the processing

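Each of the 5 lncRNAs kept its direction in all 13 settings tried, with log2 differences between 0.77 and 1.86, of which 60 of 65 stayed above 1. The mean difference of the 5, 1.21, ranged between 0.97 (without normal 3) and 1.54 (without normal 2) when 1 sample was left out, and was 1.52 without denervated 3 and normal 2 together. Since the groups did not overlap, leaving out samples, group medians and linear means could not turn a direction. None of the 5 had a value under 5, so setting such values to 5 changed nothing, and the second deposited value table gave the same differences. The kept direction is therefore a description and no check of the increase. The mean r of the 10 pairs, 0.94, was between 0.90 and 0.97 without 1 sample, 0.88 as Spearman's rho and 0.79 with group means subtracted; the last follows from taking out the step between the groups.

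Over all probes, 70 were higher and 20 lower at the double threshold of the study's methods, with p from limma. The methods name a Product Rank test for p beside limma, and the study's abstract gives a different fold-change cutoff. These counts are therefore not a repeat of the study's own. Restricting the test to the brighter 50%, which holds fewer probes, left 26 higher and 8 lower, and quantile normalization gave 34 lower. Leaving out 1 sample gave between 39 (denervated 1 omitted) and 245 (normal 2 omitted) higher probes, and 133 with denervated 3 omitted. It gave between 6 (normal 3 omitted) and 90 (denervated 2 omitted) lower probes, 79 with denervated 3 omitted and 73 with normal 2 omitted. Apart from the smaller number of probes, the cause was not tested. With the sample number as a replicate block, 51 were higher and 11 lower, and 0 of the 31 neighbours had an adjusted or an unadjusted p under 0.05 in limma. Same-numbered samples had correlations of their deviations of -0.05, -0.52 and -0.35, so the numbers do not show a pairing. Within 100 kb, 0 of 5 neighbours passed either threshold in limma. Signal over background could not be assessed from these values.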
